A study of Mus musculus with 12 samples.

Results

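The genes described here belong to the integrated stress response and the unfolded protein response (UPR). A list of 40 genes was chosen by name, with earlier results of these data known. A gene counted as measured where the array had a probe set annotated to it alone. Of these genes 39 were measured, out of 18193 genes measured in this way, and Pycr1 was not analysed here. Where a gene had several such probe sets, the one with the highest mean level stands for it. The measured genes comprised 13 stress factors and regulators, 12 genes of amino acid synthesis, folate metabolism and amino acid transport (called amino acid genes) and 14 genes of chaperones and other UPR proteins of the endoplasmic reticulum (called ER genes).

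The arrays held RNA of C790 cells, an Nras mutant mouse melanoma line, at day 20 of partial reprogramming. All cells had been transduced with a lentiviral vector for Oct4, Sox2, Klf4 and blasticidin resistance that needs doxycycline, and with a vector for the transactivator M2 with mCherry. The 4 groups of 3 arrays were control cells kept off doxycycline with DMSO (−dox DMSO) or trametinib, an inhibitor of the kinase MEK (−dox trametinib), and cells induced with doxycycline and selected with blasticidin, with DMSO (+dox DMSO) or trametinib (+dox trametinib), treated in each case for 72 h. Whether control cells were also selected is not stated in the sources used here, the dose of trametinib used for the arrays is not given in the labels, and the labels do not say whether arrays of a group came from separate cultures, so the spread behind the p-values is that between these arrays alone and may be technical.

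In the integrated stress response, kinases that sense amino acid shortage, misfolded protein in the ER, haem shortage or double-stranded RNA phosphorylate the translation initiation factor eIF2. General protein synthesis then slows while the transcription factor ATF4 is translated more, and ATF4 with its partners switches on genes of amino acid synthesis, amino acid uptake and transfer RNA charging. The UPR uses one of these kinases, PERK, together with the ER sensors IRE1 and ATF6, and the factors XBP1 and ATF6 switch on ER chaperones and genes of the degradation of misfolded protein.

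The promoters of both arms carry different known elements, which are shown here because the comparisons that follow are between these groups of genes. RefSeq promoters on GRCm38.p6, from 250 bases before to 50 bases after the gene start, were found for 35 of the 39 measured genes and were read on both strands. The letters TGATGNAA, the C/EBP-ATF response element to which ATF4 binds with a C/EBP partner, were in the promoters of 5 of 13 stress factors and regulators (Atf3, Trib3, Chac1, Vldlr and Nupr1), of 2 of 10 amino acid genes (Asns and Slc7a11) and of 1 of 12 ER genes (Herpud1), against 4.51% of 27025 genes with a promoter in the same table. The letters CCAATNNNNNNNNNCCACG, the ER stress response element to which NF-Y and ATF6 or XBP1 bind, were in the promoters of 6 of 12 ER genes (Hspa5, Hsp90b1, Dnajc3, Pdia6, Creld2 and Calr), of 0 of 13 stress factors and regulators and of 0 of 10 amino acid genes, against 0.137% of all genes. No promoter of the list held both elements. A match describes letters in this window and is no evidence of binding. In the sequences that follow, given 5′ to 3′ on the strand of the gene, capitals mark the element as read on that strand, so that some are its reverse complement.

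Asns, C/EBP-ATF response element (chr6:7693210-7693247, minus strand): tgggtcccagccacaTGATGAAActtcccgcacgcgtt
Atf3, C/EBP-ATF response element (chr1:191183421-191183458, minus strand): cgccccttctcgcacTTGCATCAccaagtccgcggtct
Nupr1, C/EBP-ATF response element (chr7:126625558-126625595, minus strand): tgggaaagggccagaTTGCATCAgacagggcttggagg
Chac1, C/EBP-ATF response element (chr2:119351034-119351071, plus strand): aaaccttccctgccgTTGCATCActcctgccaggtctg
Hspa5, ER stress response element (chr2:34772010-34772058, plus strand): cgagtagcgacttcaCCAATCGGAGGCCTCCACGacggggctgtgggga
Calr, ER stress response element (chr8:84847060-84847108, minus strand): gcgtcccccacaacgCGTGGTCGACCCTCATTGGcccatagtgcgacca
Dnajc3, ER stress response element (chr14:118937812-118937860, plus strand): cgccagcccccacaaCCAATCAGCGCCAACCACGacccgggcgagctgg
Creld2, ER stress response element (chr15:88819505-88819553, plus strand): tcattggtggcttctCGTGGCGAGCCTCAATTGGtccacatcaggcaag

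Values are log2 expression, and a background level of 4.78 was set by 83 probe sets of sensory receptor genes (olfactory, taste and vomeronasal). Of the 39 genes 38 had a mean above this level in all 4 groups. The exception was Slc7a11, the cystine transporter subunit. Of 9 measured melanocyte markers, Mitf, Pmel and Sox10 were above the level, while the pigment genes Tyr, Tyrp1, Dct, Mlana, Gpr143 and Slc45a2 were below it in all groups. Dusp6, which MEK signalling induces, was lower with trametinib in both states, by 6.90 (log2) in +dox cells. Its −dox trametinib mean lay under the background level, which gives a difference of at least 7.28 there. Of the induced genes, Pou5f1 (Oct4) rose with doxycycline under DMSO by 0.82 (adjusted p = 0.016 from limma), while Sox2 changed by -1.53 and Klf4 by -0.15 and neither was called. Under trametinib Pou5f1, Sox2 and Klf4 changed by 0.38, -0.85 and -0.02, none called, so a higher signal of all 3 factors was not seen on the arrays labelled +dox, and the +dox state is taken from the labels. Whether these probe sets detect the transcript of the vector was not tested. The 3′ to 5′ difference of the Gapdh control probe sets was -0.25 to -0.1 over the arrays and that of the actin control probe sets 0.06 to 0.31. The arrays of a group correlated on average at 0.982 to 0.994 over all genes. The first −dox DMSO array had the highest Gapdh and actin differences (-0.1 and 0.31) and the lowest correlation (0.982). On the other arrays the actin difference was at most 0.15. Whether RNA quality bears on the results was not tested.

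The first array of the −dox DMSO group stood apart in these genes. Its amino acid genes were lower than the mean of the other 2 arrays of the group by a median of -1.08 (log2). Over all genes this median was -0.15, and it was -0.41 for the stress factors and regulators and -0.16 for the ER genes. Of the amino acid genes 10 of 12 were below both other arrays, as were 11171 of all 18193 genes. Mthfd2, a mitochondrial enzyme of one-carbon metabolism, read 7.45 on this array and 9.90 and 9.67 on the others. The amino acid genes of the second +dox trametinib array were 0.97 above the other arrays of its group in the median, with 10 of 12 above both, and those of the first +dox DMSO array were -0.67 away, with 11 of 12 below both. Over all genes 6088 were above both on that trametinib array and 7965 below both on that DMSO array. The second array was also the high one for amino acid genes in the other groups. There it lay above the other arrays by a median of 0.67 (−dox DMSO), 0.415 (−dox trametinib) and 0.57 (+dox DMSO). Over all genes these medians were 0.07, 0.005 and 0.035. The amino acid genes of the first +dox trametinib array were -0.58 away from its group. The median change of the amino acid genes with trametinib in +dox cells was -0.70 with all arrays, -1.01 without the first +dox DMSO array and -1.08 without the second +dox trametinib array. With doxycycline it went from 0.73 to 0.998 under DMSO without the first +dox DMSO array, and from 0.69 to 0.43 under trametinib without the second +dox trametinib array. Their median difference between the trametinib responses, 0.07 with all arrays, was -0.11 without the first +dox DMSO array, -0.24 without the second +dox trametinib array and 0.235 without the first −dox DMSO array.

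**Figure D1:**
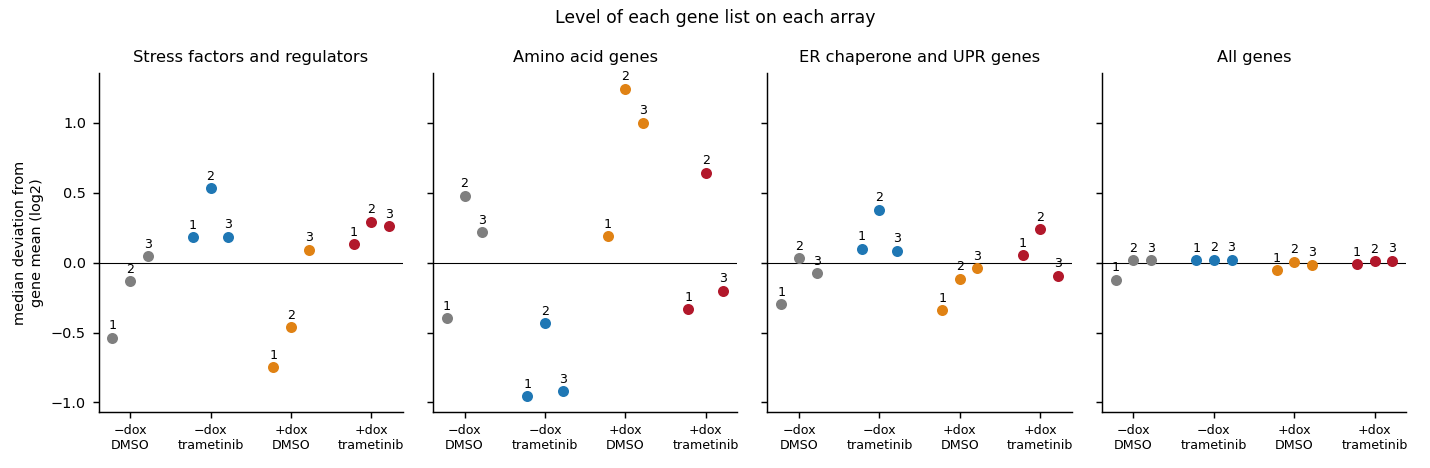
Median over the genes of each list of the deviation (log2) from the gene's mean over the 12 arrays, for each array, with the replicate number above its point. The amino acid genes lie lowest in the −dox trametinib arrays and highest in the second and the third +dox DMSO arrays, whereas the median of all genes stays near 0, and is lowest on the first −dox DMSO array.

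Trametinib was compared with DMSO within each cell state, to ask which branches of the stress response moved with MEK inhibition. In −dox cells 7 of the 39 genes rose and 3 fell, where 22.4% of all genes were called (11.6% higher and 10.8% lower). A call required a limma p-value under 0.05 after Benjamini-Hochberg adjustment over all genes. In +dox cells 9 rose and 2 fell, where 26.2% of all genes were called (13.8% higher and 12.5% lower). All trametinib arrays were above all DMSO arrays for 11 and below them for 6 of the 39 genes in −dox cells, against 20.4% and 15.2% of all genes, and for 12 and 2 in +dox cells, against 22.1% and 18.6%. The called genes of the 3 lists went in different directions. Stress factors and ER genes made up all the rises and amino acid genes all the falls in both cell states. Genes called in the same direction in both comparisons, which share no array, numbered 8, which is 80% of the 10 called in −dox cells and 72.7% of the 11 called in +dox cells. Over all genes 2794 were called in the same direction in both, which is 68.6% of the 4072 called in −dox and 58.5% of the 4772 called in +dox cells, and both comparisons use the same estimate of spread. The 8 genes were Atf3, Atf5, Ddit3, Nupr1, Calr and Edem1, higher, and Phgdh and Shmt2, lower. Markers of fibroblasts moved with trametinib too. Of 7 measured, 3 rose in both cell states, Col1a1 by 1.37 and 1.94, Col3a1 by 1.92 and 1.19 and Dcn by 1.45 and 3.33 in −dox and +dox cells, and Pdgfra changed by -0.96 in −dox cells, where it was called lower. Their part in these results was not tested.

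**Figure D2:**
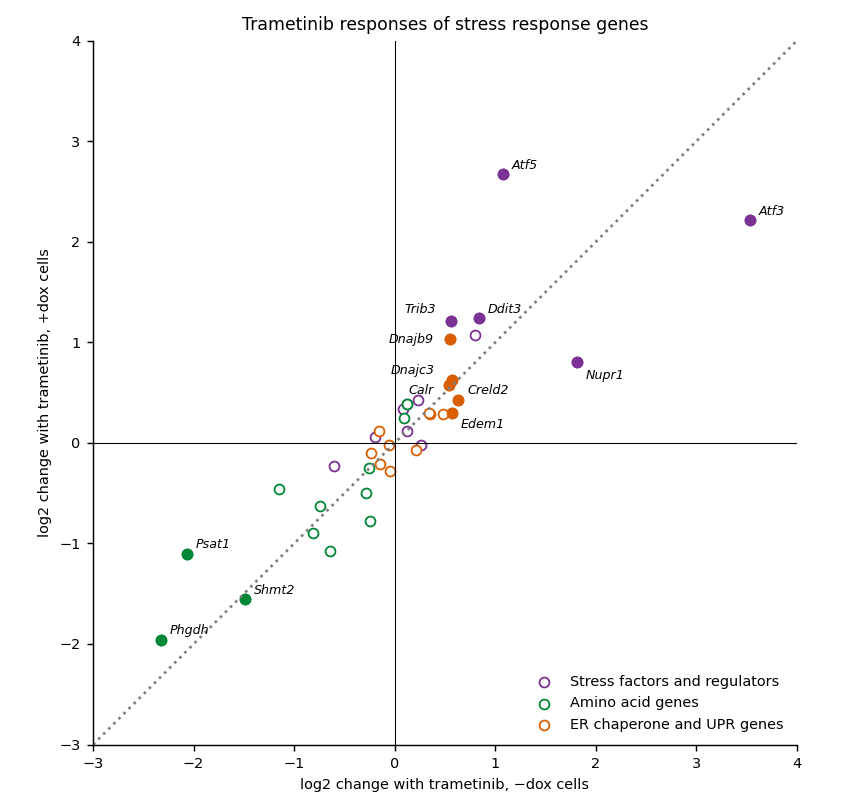
The log2 change with trametinib of each of the 39 genes, coloured by list, is plotted for −dox cells along x and for +dox cells along y. Filled points passed the test in at least 1 cell state, open points in none, and the dotted line marks equal changes. Called amino acid genes lie at the lower left and called stress factors and ER genes at the upper right.

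Of the 13 stress factors and regulators, 4 rose in −dox cells (Atf3, Atf5, Ddit3 and Nupr1), 0 fell and 9 did not pass the test, with a median change of 0.26 against 0.06 over all genes. In +dox cells the same 4 genes and Trib3 rose, 0 fell and 8 did not pass, with a median of 0.43 against 0.02 over all genes. Atf4, the central factor of the integrated stress response, which is regulated mainly in translation, did not pass the test at the level of its mRNA. Atf4 read 11.74, 11.81 and 12 with DMSO and 11.61, 11.72 and 11.63 with trametinib in −dox cells, and 11.53, 12 and 12.07 with DMSO and 11.86, 12.01 and 11.92 with trametinib in +dox cells. In −dox cells all 3 trametinib arrays lay below the DMSO arrays, with a change of -0.20 (95% interval -0.50 to 0.10). In +dox cells the groups overlapped, with a change of 0.06 (95% interval -0.24 to 0.36).

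Atf3, a stress-induced transcriptional repressor, had the largest change of the 39 genes in −dox cells. It read 5.33, 5.97 and 5.84 with DMSO and 8.77, 9.82 and 9.15 with trametinib in −dox cells. In +dox cells it read 5.38, 6.31 and 6.17 with DMSO and 8.72, 8.26 and 7.52 with trametinib. The groups did not overlap in either state, with the DMSO arrays not far above the background level. The rise was 3.53 (standard error 0.36, adjusted p = 9.6e-05 from limma) in −dox cells and 2.21 (standard error 0.36, adjusted p = 0.00092) in +dox cells.

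Atf5, a relative of Atf4 that is also translated under stress, had the largest change of the 39 genes in +dox cells. It read 8.94, 9.72 and 9.61 with DMSO and 10.22, 10.85 and 10.43 with trametinib in −dox cells, and 8.42, 9.05 and 8.86 with DMSO and 11.02, 11.57 and 11.75 with trametinib in +dox cells. All trametinib arrays were above all DMSO arrays of their cell state, and in +dox cells the gap was wide. The rise was 1.08 (standard error 0.26, adjusted p = 0.013 from limma) in −dox cells and 2.67 (standard error 0.26, adjusted p = 4.7e-05) in +dox cells. Without the second −dox trametinib array the adjusted p in −dox cells was 0.052.

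Ddit3 encodes CHOP, a C/EBP family factor that is induced when ER stress persists. It read 8.76, 9.02 and 8.88 with DMSO and 9.48, 10.05 and 9.63 with trametinib in −dox cells, and 8.62, 8.65 and 9.62 with DMSO and 9.94, 10.19 and 10.48 with trametinib in +dox cells. The groups did not overlap, although the third +dox DMSO array was high. Ddit3 rose by 0.83 (standard error 0.26, adjusted p = 0.037 from limma) in −dox cells and by 1.24 (standard error 0.26, adjusted p = 0.0039) in +dox cells. A second, dimmer probe set of Ddit3 changed by -0.22 in −dox and 0.07 in +dox cells and was not called. The call in −dox cells ended with the mean of both probe sets (adjusted p = 0.34) and without any of 6 arrays, namely the −dox DMSO arrays, the second and the third −dox trametinib arrays and the second +dox trametinib array (adjusted p = 0.052 to 0.13).

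Trib3 encodes a pseudokinase that acts downstream of CHOP and ATF4. It read 7.03, 7.82 and 7.71 with DMSO and 7.76, 8.51 and 7.97 with trametinib in −dox cells, and 7.20, 7.35 and 7.94 with DMSO and 7.95, 9.10 and 9.09 with trametinib in +dox cells. The groups overlapped in −dox cells and were only just apart in +dox cells. Trib3 rose by 1.22 (standard error 0.34, adjusted p = 0.021 from limma) in +dox cells, and its change of 0.56 (95% interval -0.19 to 1.31) in −dox cells did not pass. The call in +dox cells ended without the first or second +dox DMSO array or the second or the third +dox trametinib array (adjusted p = 0.069 to 0.081).

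Nupr1, a small stress-induced chromatin protein, was high in all groups. It read 10.96, 11.56 and 11.48 with DMSO and 13.38, 13.05 and 13.01 with trametinib in −dox cells, and 11.77, 12.57 and 12.84 with DMSO and 13.34, 13.33 and 12.91 with trametinib in +dox cells. The trametinib arrays of both cell states reached about the same level, and the DMSO arrays of +dox cells lay between. Nupr1 rose by 1.81 (standard error 0.26, adjusted p = 0.00062 from limma) in −dox cells and by 0.80 (standard error 0.26, adjusted p = 0.041) in +dox cells. The call in +dox cells ended without any of the first or second +dox DMSO arrays, the first or second +dox trametinib arrays, the second or the third −dox trametinib arrays or the third −dox DMSO array (adjusted p = 0.054 to 0.13).

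The other stress factors and regulators did not pass the test with trametinib in either cell state. Chac1, which degrades glutathione, changed by 0.80 and 1.08 in −dox and +dox cells, with 95% intervals of -0.26 to 1.86 and 0.02 to 2.14. Its first −dox DMSO array read 6.0, against 7.96 and 8.10 on the others, and without that array Chac1 was called higher in +dox cells (adjusted p = 0.011), as it was with only the arrays compared (adjusted p = 0.027) and with array weights (adjusted p = 0.049). The mTORC1 inhibitors Ddit4 and Sesn2 changed by 0.23 and 0.12 in −dox cells and by 0.43 and 0.12 in +dox cells. Ppp1r15a, the stress-induced subunit of the phosphatase that reverses eIF2 phosphorylation, changed by 0.12 in −dox and 0.38 in +dox cells. The C/EBP factors Cebpb and Cebpg, which pair with ATF4, changed by 0.26 and 0.08 in −dox cells and by -0.02 and 0.34 in +dox cells, and Cebpg passed in +dox cells in a fit with replicate as a block (adjusted p = 0.027). Vldlr, a lipoprotein receptor, changed by -0.60 and -0.23.

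**Figure D3:**
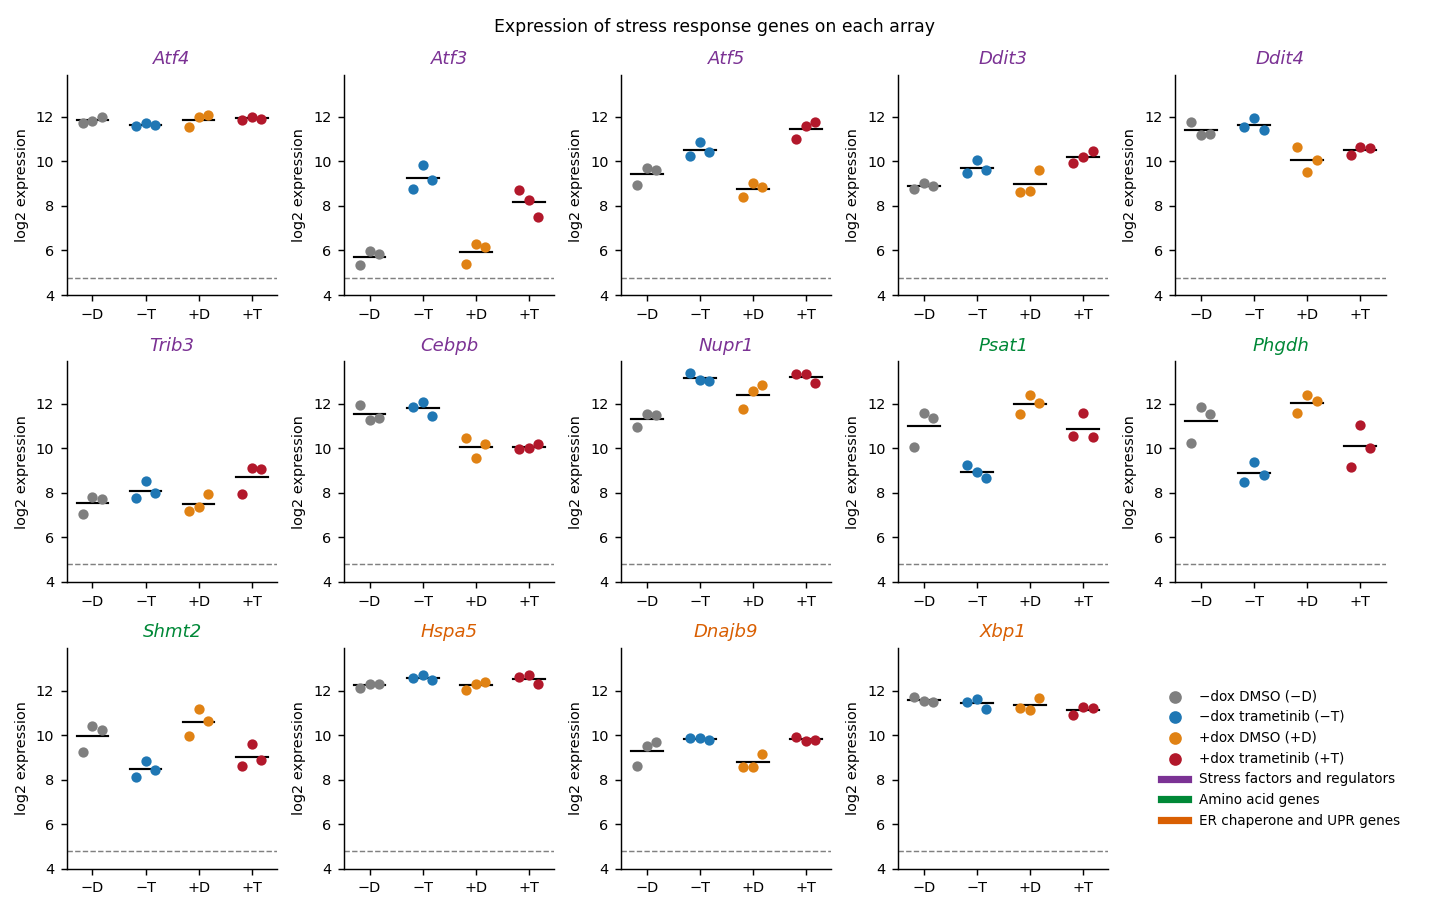
Log2 expression on each array (points, 3 per group, with the group mean as a line) of the genes with a called change of at least 1 on the log2 scale and of Atf4, Ddit3, Hspa5 and Xbp1, with gene names coloured by list. The dashed line is the background level of 4.78. Atf4, Hspa5 and Xbp1 stay nearly level, Atf3 and Atf5 rise and Phgdh and Shmt2 fall with trametinib, and Cebpb and Ddit4 are lower in +dox cells.

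Amino acid genes went the other way. Of the 12 measured genes 3 fell with trametinib in −dox cells (Phgdh, Psat1 and Shmt2), 0 rose and 9 did not pass the test. The median change of the 12 was -0.69, against 0.06 over all genes. In +dox cells Phgdh and Shmt2 fell, 0 rose and 10 did not pass, with a median of -0.70 against 0.02 over all genes. Calls of lower expression made up 10.8% of all genes in the first comparison and 12.5% in the second. The count of calls in +dox cells thus does not set this list apart. Every trametinib array lay below every DMSO array for 5 of the 12 without doxycycline and for 2 with it. Over all genes these shares were 15.2% and 18.6%. In each cell state 10 of the 12 changes were below 0. In a fit with replicate as a block 6 fell in +dox cells, the further ones being Aldh18a1 (adjusted p = 0.006), Psat1 (adjusted p = 0.028), Slc7a1 (adjusted p = 0.03) and Psph (adjusted p = 0.023). Over all genes this fit called 2801 higher and 2556 lower in +dox cells, against 2503 and 2269 without the block.

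Phgdh, the first enzyme of serine synthesis, read 10.23, 11.87 and 11.52 with DMSO and 8.47, 9.39 and 8.78 with trametinib in −dox cells, and 11.58, 12.40 and 12.13 with DMSO and 9.18, 11.06 and 10 with trametinib in +dox cells. The groups did not overlap, although the −dox DMSO and the +dox trametinib arrays were spread widely among themselves. Phgdh fell by 2.33 (standard error 0.50, adjusted p = 0.0064 from limma) in −dox cells and by 1.96 (standard error 0.50, adjusted p = 0.013) in +dox cells. All 3 further probe sets of Phgdh were called lower in both comparisons. The call in +dox cells ended without the first +dox trametinib array (adjusted p = 0.058) or the second +dox DMSO array (adjusted p = 0.052).

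Psat1, the aminotransferase that acts next in serine synthesis, read 10.06, 11.60 and 11.34 with DMSO and 9.23, 8.92 and 8.65 with trametinib in −dox cells, and 11.54, 12.37 and 12.02 with DMSO and 10.55, 11.57 and 10.50 with trametinib in +dox cells. The −dox groups were apart, and the +dox groups overlapped through the second trametinib array, the one in which amino acid genes were high. Psat1 fell by 2.07 (standard error 0.40, adjusted p = 0.0037 from limma) in −dox cells. Its change of -1.10 in +dox cells (95% interval -1.99 to -0.22) had adjusted p = 0.066, and adjusted p = 0.025 without that array. It was also called lower there without the first −dox DMSO array (adjusted p = 0.016) and with only the arrays compared (adjusted p = 0.038). The same held with arrays centred on their median (adjusted p = 0.041) and with array weights (adjusted p = 0.014). Its second probe set was called lower in −dox (-1.93, adjusted p = 0.0051) and in +dox cells (-1.19, adjusted p = 0.044).

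Shmt2, the mitochondrial enzyme that splits serine into glycine and a one-carbon unit, read 9.25, 10.42 and 10.22 with DMSO and 8.12, 8.86 and 8.43 with trametinib in −dox cells, and 9.95, 11.17 and 10.65 with DMSO and 8.61, 9.62 and 8.87 with trametinib in +dox cells. The groups did not overlap in either state. Shmt2 fell by 1.49 (standard error 0.38, adjusted p = 0.016 from limma) in −dox cells and by 1.56 (standard error 0.38, adjusted p = 0.011) in +dox cells. The call in −dox cells ended without the second or the third −dox DMSO array or the first or the third −dox trametinib array (adjusted p = 0.052 to 0.061), and that in +dox cells without the first +dox trametinib array (adjusted p = 0.051).

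The remaining amino acid genes did not pass in either state. Psph, the last enzyme of serine synthesis, changed by -0.64 in −dox and -1.08 in +dox cells. Aldh18a1, an enzyme of proline synthesis, changed by -0.82 and -0.90. Asns, asparagine synthetase and a classical ATF4 target, changed by -0.29 (95% interval -0.93 to 0.35) and -0.49 (95% interval -1.14 to 0.15), and Mthfd2 by -0.25 and -0.77. Among the transporters, Slc7a5, which imports large neutral amino acids, changed by -1.15 and -0.46, the cationic amino acid transporter Slc7a1 by -0.74 and -0.63, and Slc7a11 by -0.26 and -0.25. The 2 genes with changes above 0 were Slc3a2, the common heavy chain of Slc7a5 and Slc7a11, with 0.09 and 0.25, and Slc7a3, with 0.12 and 0.39. Without the first −dox DMSO array, 5 amino acid genes fell in −dox cells, with Aldh18a1 (adjusted p = 0.044) and Slc7a5 (adjusted p = 0.026) added, Slc7a3 was called higher (adjusted p = 0.039), and the median change was -1.12. Without the first +dox trametinib array 0 fell in +dox cells, without the second +dox DMSO array 1 fell, and without the second +dox trametinib array 4 fell, with Psat1 and Slc7a1 (adjusted p = 0.0069) added. Over all genes 2269 fell in +dox cells with all arrays, and 1688, 1862 and 1958 without these arrays in turn. In −dox cells 1959 of all genes fell with all arrays and 2271 without the first −dox DMSO array.

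Of the 14 ER genes 3 rose with trametinib in −dox cells (Calr, Creld2 and Edem1), 0 fell and 11 did not pass the test, with a median change of 0.35 against 0.06 over all genes. In +dox cells 4 rose (Calr, Edem1, Dnajb9 and Dnajc3), 0 fell and 10 did not pass, with a median of 0.28 against 0.02 over all genes. Most of these changes were small, and only that of Dnajb9 reached 1 on the log2 scale. Hspa5 encodes BiP, the main ER chaperone and the usual readout of the UPR. It read 12.13, 12.28 and 12.29 with DMSO and 12.57, 12.71 and 12.46 with trametinib in −dox cells, and 12.04, 12.29 and 12.40 with DMSO and 12.62, 12.68 and 12.28 with trametinib in +dox cells. The −dox groups were apart and the +dox groups overlapped through the third trametinib array. The change of Hspa5 was 0.35 (95% interval 0.05 to 0.64, adjusted p = 0.088 from limma) in −dox cells and 0.28 (95% interval -0.01 to 0.58, adjusted p = 0.16) in +dox cells, and without that array adjusted p = 0.048 in +dox cells. With arrays centred on their median it was called higher in −dox cells (adjusted p = 0.016 from limma). Over all genes the higher calls there then went from 2113 to 4193.

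Dnajb9, a co-chaperone of BiP and a target of XBP1, read 8.62, 9.52 and 9.70 with DMSO and 9.85, 9.87 and 9.76 with trametinib in −dox cells, and 8.58, 8.59 and 9.16 with DMSO and 9.93, 9.74 and 9.76 with trametinib in +dox cells. The groups did not overlap, and the trametinib arrays lay close together. Dnajb9 rose by 1.03 (standard error 0.25, adjusted p = 0.0088 from limma) in +dox cells, and its change of 0.55 (95% interval 0.01 to 1.09) in −dox cells had adjusted p = 0.14. Xbp1, the factor that IRE1 activates by splicing, read 11.73, 11.53 and 11.50 with DMSO and 11.49, 11.64 and 11.19 with trametinib in −dox cells, and 11.21, 11.13 and 11.66 with DMSO and 10.90, 11.25 and 11.22 with trametinib in +dox cells. The groups overlapped in both states, with changes of -0.15 (95% interval -0.51 to 0.22) and -0.21 (95% interval -0.58 to 0.16). The probe set does not tell spliced from unspliced Xbp1.

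Calr, the calcium-binding lectin chaperone calreticulin, rose by 0.54 (standard error 0.14, adjusted p = 0.018 from limma) in −dox cells and by 0.58 (standard error 0.14, adjusted p = 0.0098) in +dox cells, and both of its other probe sets were called higher in both. Dnajc3, the ER co-chaperone p58IPK, rose by 0.63 (standard error 0.19, adjusted p = 0.033) in +dox cells and changed by 0.57 in −dox cells (adjusted p = 0.057). None of its 4 other probe sets was called in +dox cells, with changes of 0.18 to 0.71. In −dox cells those with changes of 0.95 (adjusted p = 0.021) and 0.47 (adjusted p = 0.022) were called higher. The mean of its probe sets was called higher in −dox (adjusted p = 0.035) and not in +dox cells (adjusted p = 0.059). Creld2, an ER stress-induced protein, rose by 0.63 (standard error 0.19, adjusted p = 0.036) in −dox cells and changed by 0.43 in +dox cells. Edem1, which directs misfolded glycoproteins to degradation, rose by 0.57 (standard error 0.10, adjusted p = 0.0019) in −dox and by 0.30 (adjusted p = 0.046) in +dox cells, but its second probe set, not called, changed by 0.12 and -0.38.

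The remaining ER genes did not pass in either state. Manf, a secreted ER stress protein, changed by 0.48 in −dox and 0.28 in +dox cells. The disulphide isomerase Pdia4 changed by 0.34 and 0.29. Hyou1, a nucleotide exchange factor of BiP, changed by 0.21 and -0.07, Hsp90b1, the ER form of HSP90, by -0.05 and -0.02, and the disulphide isomerase Pdia6 by -0.24 and -0.10. Sdf2l1, which works with BiP, changed by -0.05 and -0.28, and Herpud1, of the ER degradation machinery, by -0.16 and 0.12. Of the 6 genes whose promoters held the ER stress response element, Calr rose in both states, Creld2 in −dox cells and Dnajc3 in +dox cells, and Hspa5, Hsp90b1 and Pdia6 passed in neither. Of the 8 genes with the C/EBP-ATF response element, Atf3 and Nupr1 rose in both states and Trib3 in +dox cells. Chac1, Vldlr, Asns, Slc7a11 and Herpud1 passed in neither. The amino acid genes that fell, Phgdh, Psat1 and Shmt2, had no match to this element in the window.

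Without any single array Edem1 stayed called in −dox cells and Calr and Dnajb9 in +dox cells, but the other ER calls did not. In −dox cells the call of Calr ended without the second −dox trametinib array (adjusted p = 0.071) or the third −dox DMSO array (adjusted p = 0.069), and that of Creld2 without the first or the third −dox DMSO array or the first or second −dox trametinib array (adjusted p = 0.075 to 0.12), so that 1 ER gene rose without the second −dox trametinib array or the third −dox DMSO array. In +dox cells the call of Dnajc3 ended without any of the 3 +dox DMSO arrays or the first or second +dox trametinib array (adjusted p = 0.058 to 0.11), which left 2 ER genes called in each case, and that of Edem1 ended without any array except the first −dox DMSO and the second and the third −dox trametinib arrays (adjusted p = 0.056 to 0.14).

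**Figure D4:**
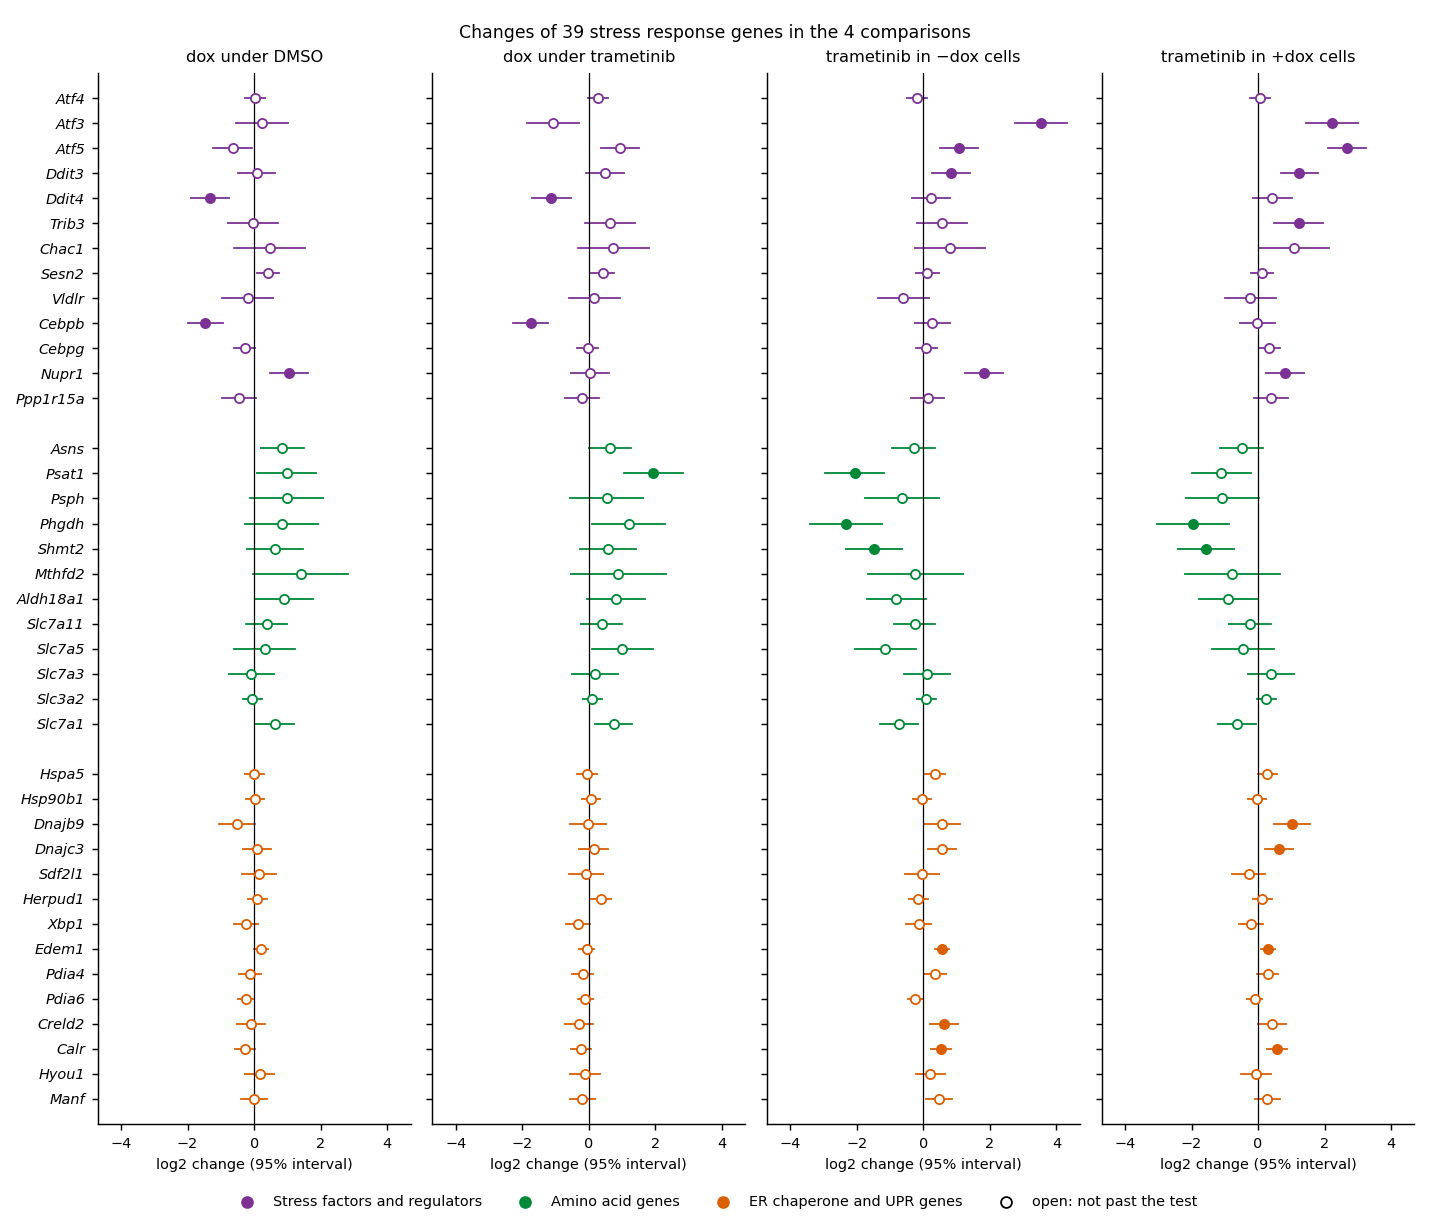
Log2 change of the 39 genes in the 4 comparisons between groups, with 95% intervals from limma, coloured by list. Filled points had an adjusted p under 0.05 over all 18193 genes and open points did not. With doxycycline Cebpb and Ddit4 are lower under DMSO and under trametinib, and most amino acid genes lie to the right of 0 with intervals that reach near or across it.

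Partially reprogrammed and control cells were then compared at the same drug condition. The +dox cells differ in doxycycline itself, and perhaps in blasticidin, as well as in induction of the vector. Effects of these on the genes cannot be told apart here. Under DMSO 1 of the 39 genes rose (Nupr1) and 2 fell (Cebpb and Ddit4), where 6.15% of all genes were called (2.87% higher and 3.28% lower). Under trametinib 1 rose (Psat1) and 2 fell (Cebpb and Ddit4), where 3.37% of all genes were called (1.95% higher and 1.42% lower). All +dox arrays were above all −dox arrays for 3 and below them for 4 of the 39 genes under DMSO, against 11.3% and 11.1% of all genes, and for 8 and 3 under trametinib, against 9.45% and 10.6%. The 14 ER genes had 0 calls in either comparison, and their median changes were 0.01 and -0.10. At an unadjusted p under 0.05 limma gave 1 ER gene lower under DMSO and 1 higher under trametinib. Over all 18193 genes it gave 1820 higher and 1852 lower under DMSO and 1386 and 1239 under trametinib.

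Cebpb, a C/EBP factor of stress and inflammation, read 11.96, 11.27 and 11.38 in −dox and 10.44, 9.58 and 10.18 in +dox cells under DMSO, and 11.85, 12.07 and 11.47 in −dox and 9.95, 10.03 and 10.17 in +dox cells under trametinib. All +dox arrays were below all −dox arrays. Cebpb fell by 1.47 (standard error 0.24, adjusted p = 0.0058 from limma) under DMSO and by 1.75 (standard error 0.24, adjusted p = 0.0025) under trametinib. Its second probe set was also called lower in both comparisons, and both calls were kept without any single array.

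Ddit4, the mTORC1 inhibitor REDD1, read 11.79, 11.17 and 11.23 in −dox and 10.63, 9.52 and 10.06 in +dox cells under DMSO, and 11.55, 11.93 and 11.40 in −dox and 10.28, 10.63 and 10.59 in +dox cells under trametinib. Here too the groups did not overlap. Ddit4 fell by 1.33 (standard error 0.26, adjusted p = 0.015 from limma) under DMSO and by 1.13 (standard error 0.26, adjusted p = 0.042) under trametinib. The first call ended without the second (adjusted p = 0.053) or the third (adjusted p = 0.058) +dox DMSO array, and the second without any array except the first −dox DMSO and the first and second +dox DMSO arrays (adjusted p = 0.052 to 0.17).

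Nupr1 rose with doxycycline under DMSO by 1.06 (standard error 0.26, adjusted p = 0.036 from limma), with all +dox above all −dox arrays, and changed by 0.05 (95% interval -0.52 to 0.62) under trametinib, where the groups overlapped. The call under DMSO ended without any array except the first −dox trametinib, the first +dox DMSO and the third +dox trametinib arrays (adjusted p = 0.05 to 0.15). Atf5 changed by -0.65 (adjusted p = 0.19) under DMSO and by 0.95 (adjusted p = 0.084) under trametinib, and in a fit with replicate as a block it was called lower under DMSO (adjusted p = 0.013) and higher under trametinib (adjusted p = 0.0026). Atf3 changed by 0.24 and -1.08, Atf4 by 0.02 and 0.28, Ddit3 by 0.08 and 0.48 and Trib3 by -0.02 and 0.63, none past the test.

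Among the amino acid genes only Psat1 passed, under trametinib, where it rose by 1.94 (standard error 0.40, adjusted p = 0.023 from limma) and all +dox were above all −dox arrays. This call ended without the second or the third −dox trametinib array or the first or second +dox trametinib array (adjusted p = 0.053 to 0.098). Under DMSO its change was 0.98 (95% interval 0.09 to 1.86). The list as a whole lay above 0, with 10 of 12 changes above 0 and a median of 0.73 under DMSO, and 12 of 12 and a median of 0.69 under trametinib, against 0.01 and -0.02 over all genes. The larger changes under DMSO were those of Mthfd2 with 1.41 (95% interval -0.02 to 2.83), Psph with 0.98, Aldh18a1 with 0.90, Asns with 0.84 and Phgdh with 0.83. Under DMSO 0 amino acid genes passed after adjustment and 4, all higher, at an unadjusted p under 0.05 in limma. Of all 18193 genes 1820 were higher at that threshold.

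In a fit with replicate as a block 5 amino acid genes were higher under DMSO, namely Aldh18a1 (adjusted p = 0.021), Shmt2 (adjusted p = 0.029), Mthfd2 (adjusted p = 0.032), Phgdh (adjusted p = 0.045) and Asns (adjusted p = 0.049). Under trametinib 4 were higher, with Slc7a5 (adjusted p = 0.0062), Phgdh (adjusted p = 0.013) and Aldh18a1 (adjusted p = 0.043) beside Psat1. Over all genes this fit called 767 higher and 811 lower under DMSO, against 522 and 596 without the block. Under trametinib it called 508 higher and 389 lower, against 355 and 259. Without the first −dox DMSO array 0 amino acid genes passed under DMSO, the median change was 0.385, and Dnajb9 was called lower (adjusted p = 0.016). Fibroblast markers also moved with doxycycline. Under DMSO 4 of 7 fell, with changes of -2.30 for Col1a1, -2.85 for Col3a1, -2.23 for Dcn and -2.07 for Pdgfra. Under trametinib 3 fell, namely Pdgfra, Col1a1 with -1.73 and Col3a1 with -3.58. Their median level was 7.97 to 8.87 in the −dox DMSO, 5.87 to 6.53 in the +dox DMSO, 7.31 to 8.18 in the −dox trametinib and 6.23 to 7.07 in the +dox trametinib arrays, with 5 of 7 above background and Thy1 and Lum below it in all groups, and their part in these results was not tested. In RNA of whole cultures, fewer cells of a kind and less RNA per cell cannot be told apart.

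Whether the response to trametinib depended on the cell state was tested as a contrast of its own, the change in +dox minus that in −dox cells. Of the 39 genes 0 passed after adjustment, where 0.33% of all genes did, and limma gave 1 higher and 2 lower at an unadjusted p under 0.05. Of all 18193 genes 1074 were higher and 1043 lower at that threshold. The larger differences were those of Atf5, whose rise was greater in +dox cells by 1.59 (95% interval 0.78 to 2.41, adjusted p = 0.11), of Atf3, with -1.32 (95% interval -2.43 to -0.21, adjusted p = 0.33), and of Nupr1, with -1.01 (95% interval -1.82 to -0.21, adjusted p = 0.3). The difference of Atf5 had adjusted p = 0.035 without the first −dox DMSO array, 0.0098 in a fit with replicate as a block and 0.0066 with array weights. For Phgdh the interval was -1.18 to 1.92 and for Hspa5 -0.48 to 0.35, so that a difference of 1 on the log2 scale lies inside the interval of Phgdh and outside that of Hspa5. The median difference was 0.07 for the amino acid genes (-0.12 with each array centred on its median), -0.06 for the ER genes and 0.26 for the stress factors and regulators, against -0.02 over all genes.

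Set side by side over the 4 groups, amino acid and ER genes had different orders. The amino acid list was lowest in −dox trametinib arrays, with a median deviation from the gene mean of -0.96, -0.43 and -0.92, and highest in +dox DMSO arrays, with 0.19, 1.25 and 1.00. The −dox DMSO arrays, with -0.40, 0.48 and 0.22, and the +dox trametinib arrays, with -0.33, 0.65 and -0.20, lay between and overlapped each other and the first +dox DMSO array. The ER list was higher with trametinib in −dox cells (0.10, 0.38 and 0.09) than with DMSO (-0.30, 0.03 and -0.08), without overlap. In +dox cells its values were 0.05, 0.24 and -0.09 with trametinib and -0.34, -0.12 and -0.04 with DMSO, and overlapped. The whole range of the ER list over the 12 arrays was thus narrower than that of the amino acid list. These deviations describe the lists and were not tested.

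Further genes of the same pathways were counted from lists that do not include the 39 genes. These lists too were chosen with earlier results of these data known. Their counts stand beside the shares of all genes called higher and lower, which were 11.6% and 10.8% with trametinib in −dox cells, 13.8% and 12.5% with trametinib in +dox cells, 2.87% and 3.28% with doxycycline under DMSO and 1.95% and 1.42% with doxycycline under trametinib. Of 15 measured genes of eIF2 control and ER sensing, 1 rose and 1 fell with trametinib in −dox cells and 3 rose and 3 fell in +dox cells. Eif2ak1, the haem-regulated eIF2 kinase, rose by 0.87 and 0.89 in −dox and +dox cells, and Eif2ak2, the double-stranded RNA sensor PKR, by 1.55 in +dox cells. Eif2ak4, the amino acid sensor GCN2, fell by 0.59 in −dox cells, and the eIF2B subunits Eif2b3 and Eif2b1 fell by 1.16 and 0.49 in +dox cells. With doxycycline under DMSO 0 rose and 2 fell, Ern1, which encodes IRE1, by 0.83 and the protease gene Mbtps1 by 0.46, and under trametinib 0 were called.

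Of 12 aminoacyl-tRNA synthetases, 1 rose and 2 fell with trametinib in −dox cells and 1 rose and 4 fell in +dox cells. The one that rose was Wars, the tryptophan enzyme, which interferon also induces, by 1.34 and 2.02. Eprs fell by 0.73 and 0.90 in −dox and +dox cells, Iars by 0.58 in −dox cells and Cars by 0.82 in +dox cells. With doxycycline 1 rose under DMSO, Iars by 0.75, and 0 were called under trametinib.

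Of 12 further ATF4 target genes, 2 rose and 3 fell with trametinib in −dox cells and 0 rose and 3 fell in +dox cells. Pck2, the mitochondrial form of phosphoenolpyruvate carboxykinase, fell by 2.07 and 1.45, Mthfd1l, of mitochondrial folate metabolism, by 1.18 and 1.71, and the glutamine transporter Slc1a5 by 1.54 and 1.19. Cth, which makes cysteine from cystathionine, rose by 0.84 and the glycine transporter Slc6a9 by 0.73 in −dox cells. With doxycycline Cth rose by 1.36 under DMSO and by 1.17 under trametinib, where Slc6a9 fell by 0.83.

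Of 24 further genes of ER folding and degradation, 7 rose and 0 fell with trametinib in −dox cells and 5 rose and 0 fell in +dox cells. Dnajb11, a BiP co-chaperone, rose by 1.24 and 0.99, and Wfs1, the ER membrane protein wolframin, by 1.13 and 1.09. With doxycycline 0 were called under DMSO or under trametinib, where limma gave 3 and 2 lower and 0 higher at an unadjusted p under 0.05. Of all 18193 genes 1852 and 1239 were lower and 1820 and 1386 higher at that threshold. The difference between the trametinib responses had 0 calls in each of these 4 further lists, and at an unadjusted p under 0.05 limma gave 4 of their genes higher or lower. Over all genes it gave 1074 higher and 1043 lower there.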

How the data were processed

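Total RNA of the 12 samples was measured on Affymetrix whole-genome mouse arrays. The authors used RMA, run in Chipster, for normalisation. The deposited table holds log2 expression values for 45101 probe sets, rounded to 2 decimals, which were used as they are. The number of arrays limits the precision. RMA fits probe effects over all arrays and equalises the distributions of their probe values, so that a shift common to all genes cannot be seen. The median over the genes used here still ranged from 6.52 to 6.78 over the arrays. Version and background settings are not given in the sources used here.

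Probe sets with no gene (9160), several genes (932) or control sequence (64) were left out of the gene table, and 34945 with a single gene gave 18193 genes. The probe set of highest mean level stood for its gene. The genes and the gene lists were chosen with earlier results of these data known. Groups were compared in 5 comparisons with lmFit and eBayes of limma 3.58.1 (R 4.3.3), with a mean per group and no covariates. Benjamini-Hochberg adjustment ran over all genes, and an adjusted p under 0.05 was a call. No set test was run, and levels were not compared between probe sets. Values on each array are printed for genes with a called log2 change of at least 1 in size and for Atf4, Ddit3, Hspa5 and Xbp1. Dnajb9 met this rule. Of the other pathway lists up to 2 genes per direction and comparison are named, those with the largest called changes. The lists of leukocyte and keratinocyte markers had 4 of 7 and 3 of 5 measured genes above the background level in at least 1 group.

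Deviations of same-numbered arrays from their group means correlated at 0.17 to 0.34 for doxycycline under DMSO, 0.21 to 0.29 under trametinib, 0.16 to 0.45 for trametinib in +dox cells and 0.02 to 0.46 for trametinib in −dox cells. A correlation over 0.1 in every pair was taken to pair the arrays, which held for all of these but the last. The pairing comes from the data, as the labels do not state what a number stands for. For these comparisons the value from a fit with replicate as a block is given beside the result where it changes a call. For trametinib in −dox cells it is given only with the alternatives. There pairs 1 and 2 correlated at 0.30 and 0.46 and pair 3 at 0.02. The other comparisons connect the −dox groups through the +dox groups, so the rule does not settle pairing there. The main calls do not use the pairing.

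As alternatives the fit had replicate as a block, held only the arrays compared, or left out each array in turn. Genes took the mean of their probe sets, each probe set was tested alone, or dim genes were dropped. Arrays were quantile normalised again, centred on their median or weighted, eBayes was trended and robust, the adjusted p had to be under 0.01, or the fold change also had to be over 2. The background level was also set at the 90th and the 99th instead of the 95th percentile of the receptor probe sets. The fit was also run on simulated arrays with independent noise, which leaves out the correlation of same-numbered arrays, and no result here rests on it. Promoter letters were searched in the RefSeq table with Python 3.11.15, and figures were drawn with matplotlib 3.10.9.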

Additional observations from a re-analysis of the deposited data

How the results depend on the processing

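Of the 27 called changes of single genes, that of Edem1 with trametinib in +dox cells changed sign when both probe sets were averaged, to -0.043 (adjusted p = 0.85). With a replicate block no call was lost. Amino acid genes higher numbered 5 for doxycycline under DMSO and 4 under trametinib, and amino acid genes lower 6 in each trametinib comparison, with Slc7a5, Aldh18a1 and Slc7a1 added in −dox cells (adjusted p = 0.00072 to 0.016). ER genes higher with trametinib in −dox cells numbered 6, with Manf, Dnajc3 and Pdia4 added (adjusted p = 0.011 to 0.047), stress factors lower there 1, which was Vldlr (adjusted p = 0.01), stress factors higher for doxycycline under trametinib 1, and stress factors higher in the difference between the trametinib responses 1, which was Atf5 (adjusted p = 0.0098). Over all genes the block gave 2446 higher and 2251 lower with trametinib in −dox and 2801 and 2556 in +dox cells. With doxycycline it gave 767 and 811 under DMSO and 508 and 389 under trametinib, and in the difference 85 and 56.

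Centring arrays on their median moves the change with trametinib in −dox cells by 0.13 upwards for every gene. ER genes higher there became 8, and stress factors higher with doxycycline under DMSO 2. Over all genes the split of higher to lower calls moved from 522 and 596 to 1148 and 464 for doxycycline under DMSO, from 355 and 259 to 294 and 425 under trametinib, and from 2113 and 1959 to 4193 and 1544 for trametinib in −dox cells. The median of the stress factors with doxycycline under DMSO went from -0.02 to 0.07. The calls in the difference between responses over all genes went from 47 higher and 13 lower to 49 and 168.

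Array weights gave 1 amino acid gene and 2 stress factors higher and 2 ER genes lower for doxycycline under DMSO, and 1 stress factor higher under trametinib. They gave 8 amino acid genes, 2 stress factors and 2 ER genes lower and 5 ER genes higher with trametinib in −dox cells, 5 amino acid genes lower in +dox cells, and 1 stress factor higher in the difference (Atf5, adjusted p = 0.0066). Over all 18193 genes the weights gave 1719 higher and 2367 lower for doxycycline under DMSO and 830 and 597 under trametinib. With trametinib they gave 3496 and 3635 in −dox and 3086 and 2895 in +dox cells, and 680 and 386 in the difference. With only the arrays compared, 0 stress factors rose and 1 fell for doxycycline under DMSO, where Nupr1 had adjusted p = 0.12, and Nupr1 had adjusted p = 0.064 for trametinib in +dox cells. The mean of probe sets left 2 ER genes higher in +dox cells, and probe sets tested one by one left 1 stress factor lower for doxycycline under trametinib, with Ddit4 at adjusted p = 0.059.

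At an adjusted p under 0.01, doxycycline under DMSO left 0 stress factors higher and 1 lower, and under trametinib 1 stress factor lower and 0 amino acid genes higher. Trametinib in −dox cells left 2 stress factors and 1 ER gene higher, and in +dox cells 3 stress factors and 2 ER genes higher and 0 amino acid genes lower. A fold change over 2 in addition left 0 ER genes higher in −dox and 1 in +dox cells.

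Leaving out each array in turn, stress factors higher ranged from 0 to 2 and lower from 1 to 2, and ER genes lower from 0 to 1, for doxycycline under DMSO. Under trametinib, stress factors higher ranged from 0 to 1 and lower from 1 to 2, and amino acid genes higher from 0 to 1. With trametinib in −dox cells stress factors higher ranged from 2 to 4, amino acid genes higher from 0 to 1 and lower from 2 to 5, and ER genes higher from 1 to 4. In +dox cells stress factors higher ranged from 3 to 6, amino acid genes lower from 0 to 4 and ER genes higher from 2 to 4, and in the difference stress factors higher ranged from 0 to 1. Calls over all genes shifted in these fits too. With trametinib in −dox cells they ranged from 1505 to 2090 higher and 1378 to 2271 lower, and in +dox cells from 1917 to 2965 and 1688 to 2687. With doxycycline under DMSO they ranged from 204 to 638 higher and 245 to 722 lower, and under trametinib from 181 to 571 and 112 to 393. The causes of these shifts were not tested.

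The further quantile normalisation, the filter on dim genes and the trended and robust eBayes kept every count of a list within 1.5 times its value. A background level at the 90th percentile left 39 genes above it in all groups, and one at the 99th 37. The difference could not be fitted with only the arrays compared, since it uses all. Slc7a11 lay near the background, where a change is understated.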
